A study of Mus musculus with 30 samples.

Results

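The genes described here are 10 genes of the unfolded protein response and the integrated stress response, chosen by name: Atf4, Ddit3, Xbp1, Atf6, Ern1, Eif2ak3, Trib3, Chac1, Herpud1 and Asns. All 10 were among the 21412 genes of the deposited table of hippocampal transcripts. The tissue came from male BALB/c mice. Those of the Ctr, LD and HD groups were 2 to 3 weeks old at arrival, were acclimatised for 5 days and were then fed a purified diet for 11 weeks. The Ctr group received unspiked feed, the LD group feed with 0.28 mg of methylmercury (MeHg) per kg, and the HD group feed with 5 mg per kg. The Se_Ctr, Se_LD and Se_HD groups carry the same names with a prefix for selenium, which the series title gives as selenium-methionine; their doses, ages and schedule are not given in the sources used here. Each of the 6 groups held 5 mice with 1 library each, so that a replicate is a mouse, and the mice were numbered within a group in deposit order. Libraries held 5768208 to 11510521 reads on genes (median 9351470), and values are normalized read counts, meaning reads divided by the size factor of the library.

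None of the 10 genes passed the test used between dose groups, within either diet. In a single HD mouse, HD replicate 2, Asns, Atf4, Ddit3, Chac1 and Eif2ak3 were at their highest of all 30 mice, together with most of the genes for amino acid supply and tRNA charging, whereas Xbp1, Atf6, Ern1 and Herpud1 were not. By size, Eif2ak3 stood out little, at 1.20 times the median of the other 29 mice, below Herpud1 (1.28) and Xbp1 (1.22). Xbp1 and Herpud1 correlated over the 30 mice (r = 0.70), also as deviations from the group means (0.66). Atf4 and Herpud1 gave 0.60 and 0.64, and Xbp1 was closest in pattern to the chaperone gene Hspa5.

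By way of background, the endoplasmic reticulum folds secreted and membrane proteins, and an excess of unfolded protein there is sensed by 3 membrane proteins. PERK (encoded by Eif2ak3) phosphorylates the translation initiation factor eIF2α, which slows protein synthesis while favouring translation of the transcription factor ATF4. IRE1α (Ern1) splices the messenger of the transcription factor XBP1, and ATF6 is cut in the Golgi to release an active fragment. The kinases GCN2, PKR and HRI phosphorylate the same site of eIF2α on amino acid shortage, double-stranded RNA or haem shortage, and the shared output through ATF4 is the integrated stress response. Much of this control acts on protein, on translation and on splicing, none of which a read count per gene measures.

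The start regions of these genes are shown because ATF4 and its partners act through a short composite element, here searched as TGATGNAAN on both strands in the window from 250 bases before to 50 after the RefSeq start of each gene (mouse build GRCm38.p6). A window was on hand for 9 of the 10 genes, all but Atf6. The letters were found in Asns, Chac1, Herpud1 and Trib3, beside 3.95% of all 32851 windows searched. The 250 bases before the start are printed for Asns (chr6:7693210-7693459, minus strand), Chac1 (chr2:119350992-119351241, plus strand) and Herpud1 (chr8:94386179-94386428, plus strand), with matches in capitals; in Herpud1 the second stretch of capitals is a match to another element, described after the sequences.
Asns: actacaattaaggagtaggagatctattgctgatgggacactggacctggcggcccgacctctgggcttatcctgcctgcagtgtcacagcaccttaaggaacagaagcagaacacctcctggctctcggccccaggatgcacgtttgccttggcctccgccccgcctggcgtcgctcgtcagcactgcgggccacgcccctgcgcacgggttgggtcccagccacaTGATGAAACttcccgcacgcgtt
Chac1: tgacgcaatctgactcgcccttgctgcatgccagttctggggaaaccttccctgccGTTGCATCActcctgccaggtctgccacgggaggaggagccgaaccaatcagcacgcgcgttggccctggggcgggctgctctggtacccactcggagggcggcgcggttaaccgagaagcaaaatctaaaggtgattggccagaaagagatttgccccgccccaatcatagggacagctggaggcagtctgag
Herpud1: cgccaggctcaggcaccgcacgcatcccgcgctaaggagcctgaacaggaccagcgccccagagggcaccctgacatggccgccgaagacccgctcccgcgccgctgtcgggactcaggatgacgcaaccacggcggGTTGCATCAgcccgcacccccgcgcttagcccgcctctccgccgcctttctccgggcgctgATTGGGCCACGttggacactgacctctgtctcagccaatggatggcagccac
In Asns the match TGATGAAAC began 23 bases before the start. The Chac1 and Herpud1 windows both held GTTGCATCA, the element on the opposite strand, which began 194 and 113 bases before the start, respectively. In Trib3 the letters TTTACATCA began at base 14 counted from the start. The XBP1 and ATF6 arms are known to act through endoplasmic reticulum stress elements, of which 2 forms were searched on both strands. The shorter form, ATTGG and CCACG with 1 free base between them (0.0365% of all windows), which was added to the search after the Herpud1 sequence had been seen, was found in Herpud1 alone of the 9 windows, as ATTGGGCCACG beginning 52 bases before the start. The longer form, CCAAT and CCACG with 9 free bases between them (0.119% of all windows), the XBP1 motif TGACGTGG (0.676%) and the cyclic AMP element TGACGTCA (1.79%), which shares its first letters with the latter, were not found in the 9 windows. A match is a description of the letters and not a binding site, and its absence says only that these letters are not in the window.

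Before the results, 2 libraries that stood apart need a description. HD replicate 2 was the highest of 30 mice for 1841 of the 14296 genes whose mean reached 10 (12.9%), more than any other mouse, and held the highest summed level of 10 microglial markers (7843, against 2598 to 3279 in the 25 mice outside HD). Its summed level of 7 excitatory neuron markers was the lowest (29821, against 41392 to 67662 outside HD), and Camk2a made up 20087 of it. Camk2a, Grin2a and Fibcd1 were at their lowest of the 30 mice. By contrast, Slc17a7 (6340), Prox1 (921) and Spink8 (176) were above their Ctr medians (6235, 907 and 159), and Neurod6 was slightly below (1861 against 1929). Ctr replicate 2 was the shallowest library, and the mitochondrial ribosomal RNA gene mt-Rnr2 took 4.92% of its reads, where mt-Co1 led every other library with 2.05% to 3.37%. It also had the lowest summed level of 10 immediate early genes, 1342 against up to 9270 in the other Ctr mice. Neuronal markers were present in every library, as the tissue label requires. In bulk tissue, fewer cells of a type and less RNA per cell cannot be told apart.

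Compared per kilobase of exon, so that genes of different length can be set side by side, Atf4 was the most abundant of the 10 genes, with 286 normalized counts per kb over the 30 mice. Asns followed with 195, then Atf6 (100.5), Xbp1 (100.2), Ddit3 (95.2) and Herpud1 (76.9). The kinase genes were lower, Eif2ak3 with 36.2 and Ern1 with 14.2 normalized counts per kb, and Chac1 lay between them with 15.8. By group mean, Chac1 was below Ern1 in Ctr (14.3 against 15.1 per kb) and Se_LD (13.6 against 15.2). It was above Ern1 in the other groups, and the order of Chac1 and Ern1 is not resolved. Trib3 was near the detection limit with 1.19 per kb and 76 reads in all 30 libraries together. Atf6, Xbp1, Ddit3 and Herpud1 had overlapping ranges over mice, and their order is not resolved.

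**Figure D1:**
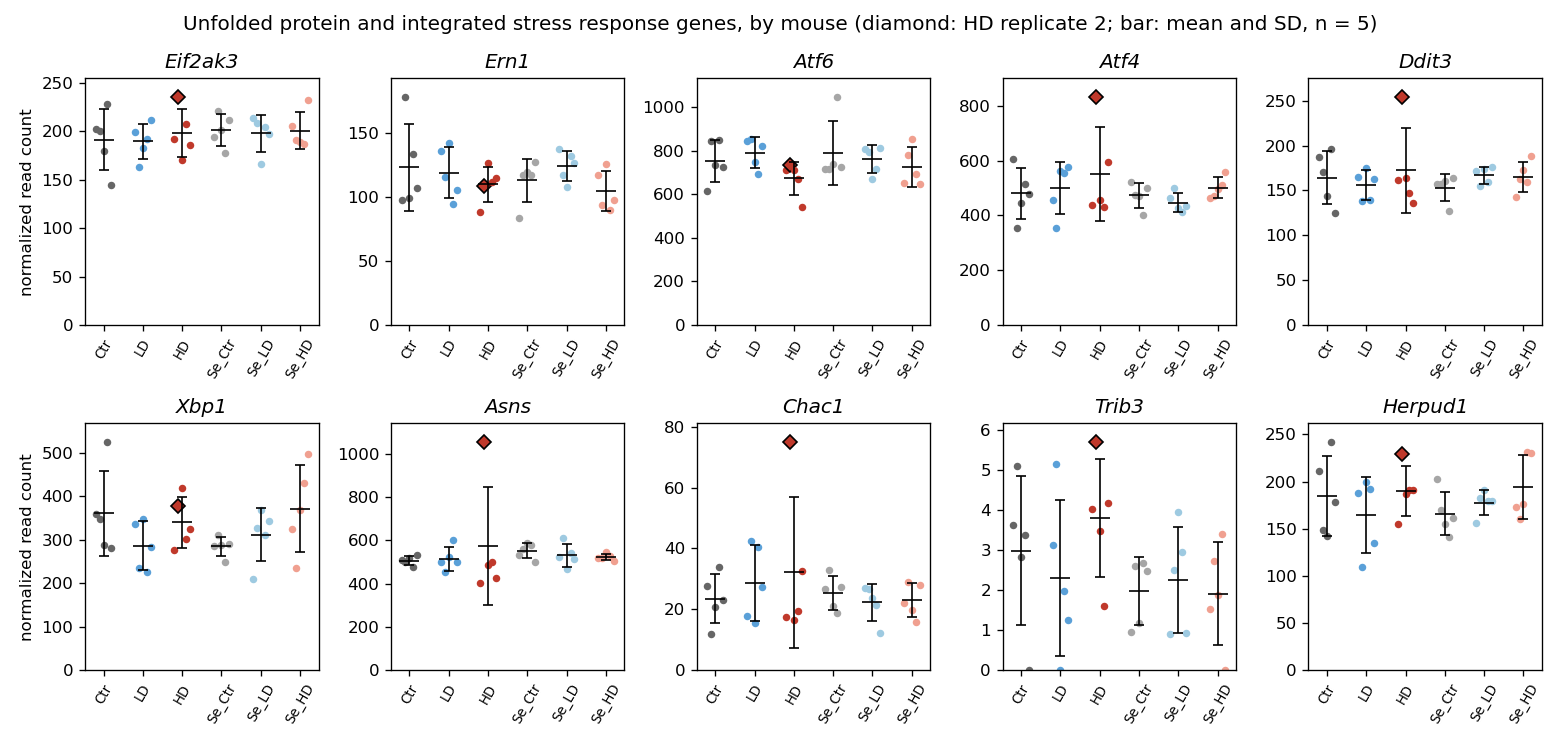
Normalized read count (vertical axis, from 0) of each of the 10 genes in each mouse, by group (horizontal axis). Points are mice, the diamond is HD replicate 2, and bars give the mean and SD of 5 mice. The diamond is the highest point for Eif2ak3, Atf4, Ddit3, Asns, Chac1 and Trib3, and lies within the other points for Ern1, Atf6, Xbp1 and Herpud1.

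Of the 3 sensors, Eif2ak3 (ENSMUSG00000031668, chr6:70794509-70855239, plus strand; gene coordinates are on build NCBIM37) encodes PERK. It measured 203, 201, 179.5, 229 and 144 normalized counts in the Ctr mice, 199.8, 164, 183, 192 and 212 in LD and 192, 236, 170.1, 207 and 186 in HD. The 3 groups overlapped, and the HD group stood at 198 ± 24.9 against 191 ± 31.4 in Ctr (mean ± SD, n = 5). With selenium, the groups held 177 to 221 (Se_Ctr), 166 to 214 (Se_LD) and 187 to 232 (Se_HD). The log2 fold change of HD against Ctr was 0.059 (95% confidence interval -0.21 to 0.33).

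Ern1 (ENSMUSG00000020715, chr11:106255964-106349166, minus strand) encodes IRE1α, the kinase and endoribonuclease that splices Xbp1 messenger. Values were 97.8, 179, 99.2, 134 and 107 in Ctr, 136, 116, 142, 94.9 and 106 in LD and 88.8, 109, 126, 112 and 115 in HD. The highest of all 30 belonged to Ctr replicate 2, the shallowest library, and the HD mice all lay within the Ctr range except for the lowest of them. In the selenium groups Ern1 ranged from 83.6 to 127 (Se_Ctr), 108 to 138 (Se_LD) and 89.9 to 126 (Se_HD). The HD to Ctr difference on the log2 scale was -0.13 (95% confidence interval -0.49 to 0.22), and it was 0.0086 when Ctr replicate 2 was left out.

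Atf6 (ENSMUSG00000026663, chr1:172634588-172797902, minus strand) encodes the membrane-bound transcription factor of the third arm. In the Ctr mice it measured 615, 844, 737, 849 and 728, in LD 845, 856, 747, 692 and 821 and in HD 712, 735, 711, 669 and 543. HD held the lowest value of the 30 mice, and 2 of the 5 HD mice lay below every LD mouse. The log2 fold change was -0.16 (95% confidence interval -0.38 to 0.064) for HD against Ctr and -0.24 (95% confidence interval -0.46 to -0.012) for HD against LD. The latter contrast had an unadjusted p of 0.0395 in limma, but the test over the 3 groups did not pass and the adjusted p, over all 20031 genes, was 0.67. With selenium, Se_Ctr replicate 4 stood alone at 1049, where the other Se_Ctr mice held 717 to 741.

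Among the transcription factors, Atf4 (ENSMUSG00000042406, chr15:80085614-80087970, plus strand) is the effector of eIF2α phosphorylation. The Ctr mice held 607, 352, 447, 515 and 478 normalized counts, the LD mice 456, 355, 561, 555 and 576 and the HD mice 437, 833, 457, 431 and 597. HD replicate 2 was above every other mouse, and the other 4 HD mice lay inside the Ctr range. The HD mean of 551 ± 172 against 479.9 ± 93.4 in Ctr gave a log2 fold change of 0.17 (95% confidence interval -0.20 to 0.54), which came to 0.011 without HD replicate 2. In the selenium groups, Se_LD held 462, 499, 428, 411 and 433 and Se_HD 464, 471, 498, 512 and 560.1. The Se_HD mice were higher by 0.16 (95% confidence interval 0.0013 to 0.33) on the log2 scale and were not called, with an unadjusted limma p of 0.0483 and an adjusted p of 0.947.

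Ddit3 (ENSMUSG00000025408, chr10:126727830-126733344, plus strand) encodes CHOP, a factor induced by ATF4 that favours cell death under lasting stress. It measured 187, 170.1, 144, 196 and 125 in Ctr, 165, 138, 175, 139 and 163 in LD and 161, 255, 164, 147 and 136 in HD. Again HD replicate 2 stood alone, and the other 4 HD mice lay within the Ctr range. The HD to Ctr difference was 0.052 (95% confidence interval -0.28 to 0.39) on the log2 scale, and -0.097 without that mouse. Se_LD was the tightest group, at 155 to 176, and overlapped Se_Ctr (127 to 164) and Se_HD (143 to 189). Exons of Ddit3 overlap those of Mars and RP24-341K21.6 on the opposite strand, and the strand setting of the counting is not given, so reads of these genes cannot be told apart here.

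Xbp1 (ENSMUSG00000020484, chr11:5420662-5425896, plus strand) encodes the transcription factor whose messenger IRE1α splices. Values were 359.8, 347, 288, 525 and 281 in Ctr, 336, 236, 348, 226 and 284 in LD and 277, 378, 419.6, 301 and 324 in HD. Ctr replicate 4 was the highest of the 30 mice, and HD replicate 2 had rank 5. The log2 fold change was -0.32 (95% confidence interval -0.66 to 0.027) for LD (-0.17 without Ctr replicate 4) and -0.062 (95% confidence interval -0.41 to 0.28) for HD against Ctr. With selenium the values were 286, 309, 287, 247 and 290.4 in Se_Ctr, 209, 327, 369, 309.6 and 342 in Se_LD and 325, 234, 368, 430.2 and 497 in Se_HD. Here 4 of the 5 Se_HD mice, and 4 of the 5 Se_LD mice, exceeded every Se_Ctr mouse. The fifth mouse of Se_HD (replicate 2) and that of Se_LD (replicate 1) were below every Se_Ctr mouse.

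The Se_HD to Se_Ctr difference of Xbp1 was 0.34 (95% confidence interval 0.0090 to 0.68) on the log2 scale, with an unadjusted limma p of 0.0447. It was not called, because the test over the 3 selenium groups gave p = 0.117, and the adjusted p was 1; the exact two-sided permutation test gave p = 0.127. With each mouse left out it ranged from 0.23 (without Se_HD replicate 5) to 0.50 (without Se_HD replicate 2), and only the latter passed the call rule (unadjusted p = 0.00196). The dose effect with selenium minus that without was 0.40 (95% confidence interval -0.094 to 0.90) for the high dose and 0.43 (95% confidence interval -0.072 to 0.93) for the low dose, and both intervals include 0. With each mouse left out the high-dose value ranged from 0.26 (without Ctr replicate 4) to 0.56 (without Se_HD replicate 2, where it passed the call rule), and the low-dose value from 0.28 (without Ctr replicate 4) to 0.56 (without Se_LD replicate 1, not called). Which form of the messenger was present, spliced or unspliced, is not measured by these counts.

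Among the target genes, Asns (ENSMUSG00000029752, chr6:7625169-7643254, minus strand) encodes asparagine synthetase and carries the TGATGAAAC match printed above. The Ctr mice held 507, 499, 517, 476 and 533, the LD mice 498, 453, 524, 604 and 498 and the HD mice 405, 1057, 486, 502 and 424. HD replicate 2 had a far higher count than any other mouse, whereas HD replicates 1 and 5 were the lowest of all 30 mice. The HD group mean of 575 ± 273 against 506 ± 21.5 in Ctr corresponded to a log2 fold change of 0.083 (95% confidence interval -0.29 to 0.46). Without HD replicate 2 the difference turned to -0.16 (unadjusted p = 0.124). Over both diets and also without that mouse, Asns was lower with the high dose by -0.12 (unadjusted p = 0.0486) and higher with selenium by 0.12 (unadjusted p = 0.0121), calls that were not made with all 30 mice (0.0035 and 0.043). The selenium groups were even, with 501 to 588 in Se_Ctr, 465 to 613 in Se_LD and 505 to 545 in Se_HD.

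Chac1 (ENSMUSG00000027313, chr2:119176965-119180117, plus strand) encodes an enzyme that degrades glutathione and is a target of ATF4. It was measured at 27.8, 11.9, 20.8, 33.8 and 23.0 in Ctr, 17.8, 42.5, 15.6, 40.5 and 27.4 in LD and 17.5, 75.1, 16.6, 19.3 and 32.5 in HD. HD replicate 2 was the highest of the 30 mice, with 92 reads where no other library held more than 41, and the other 4 HD mice lay inside the LD range. The log2 fold change of HD against Ctr was 0.26 (95% confidence interval -0.55 to 1.07), and -0.0998 without HD replicate 2. In the selenium groups Chac1 stayed between 12.0 and 32.8.

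Trib3 (ENSMUSG00000032715, chr2:152163158-152169768, minus strand) encodes a pseudokinase that is induced by ATF4 and CHOP and restrains them. Read counts were 3, 3, 3, 3 and 0 in Ctr, 3, 4, 0, 2 and 1 in LD, and 3, 7, 4, 2 and 5 in HD. The 7 reads of HD replicate 2 were the most of any library. The HD to Ctr difference was 0.42 (95% confidence interval -0.67 to 1.51) on the log2(count + 1) scale, an interval that spans a fall and a rise, and a count of 0 reads still allows up to 3. No difference in Trib3 was detectable at this depth.

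Herpud1 (ENSMUSG00000031770, chr8:96910338-96919277, plus strand) encodes a membrane protein of endoplasmic reticulum-associated degradation. It measured 211, 148, 143, 242 and 178 in Ctr, 188, 109, 199, 192 and 134 in LD and 155, 229, 187, 190.5 and 191 in HD. The highest mouse was Ctr replicate 4, as for Xbp1, and HD replicate 2 had rank 4. In Se_HD, replicates 4 and 5 (231 and 230.1) exceeded every Se_Ctr mouse (142 to 202), and the other 3 mice lay at 160.7 to 176. The log2 fold change was 0.065 (95% confidence interval -0.30 to 0.43) for HD against Ctr and 0.22 (95% confidence interval -0.019 to 0.46) for Se_HD against Se_Ctr. The value for HD against Ctr turned to -0.0050 without HD replicate 2, -0.0068 without Ctr replicate 2 and -0.020 without Ctr replicate 3.

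The comparisons addressed whether MeHg at either dose altered these transcripts, and whether the diet with selenium changed that. A gene was called when limma gave p below 0.05 both over the 3 groups of a diet and in the contrast. By this rule 0 of 10 genes were called in HD against Ctr, where 5.09% of all genes tested were. The count was also 0 of 10 for LD against Ctr (background 1.46%), HD against LD (4.49%), Se_HD against Se_Ctr (2.06%), Se_LD against Se_Ctr (1.46%) and Se_HD against Se_LD (2.47%). Fits over all 30 mice gave 0 of 10 for the high dose pooled over diets (4.21%), the low dose pooled (0.823%), selenium pooled over doses (2.3%), Se_Ctr against Ctr (1.3%) and the interactions of selenium with the high (2.38%) and low dose (1.09%). With so small a list, backgrounds of this size lead one to expect a count at or near 0. The quasi-likelihood test of edgeR and DESeq2, run on the recovered reads, called 0 of 10 in each contrast too. The contrast p alone was below 0.05 for 1 of 10 genes in each of 3 contrasts: Atf6 in HD against LD (background 6.96%), Xbp1 in Se_HD against Se_Ctr (4.19%) and Atf4 in Se_HD against Se_LD (4.94%). No adjusted p was below 0.05 in any contrast (lowest 0.612), a mark that 0.13% of all genes passed in HD against Ctr, 0.0499% in HD against LD and 0.21% for the high dose pooled.

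In HD against Ctr, 7 of the 10 log2 fold changes were above 0, with a median of 0.062 beside 0.0067 over all genes. Leaving Trib3 aside, they ran from -0.16 (Atf6) to 0.26 (Chac1), and their intervals reached from -0.55 to 1.07. Without HD replicate 2 the median was -0.098, and 2 of 10 were above 0. In Se_HD against Se_Ctr 4 of 10 were above 0, with a median of -0.040. Exact two-sided permutation tests of the group means, 40 in all for both doses in both diets, gave no p under 0.05; the lowest was 0.0952 (Ddit3, Se_LD against Se_Ctr), the lowest adjusted value 0.939, and 5 mice against 5 can reach 0.00794. A p that misses the threshold does not show that groups are alike; the intervals above bound what these mice leave possible.

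**Figure D2:**
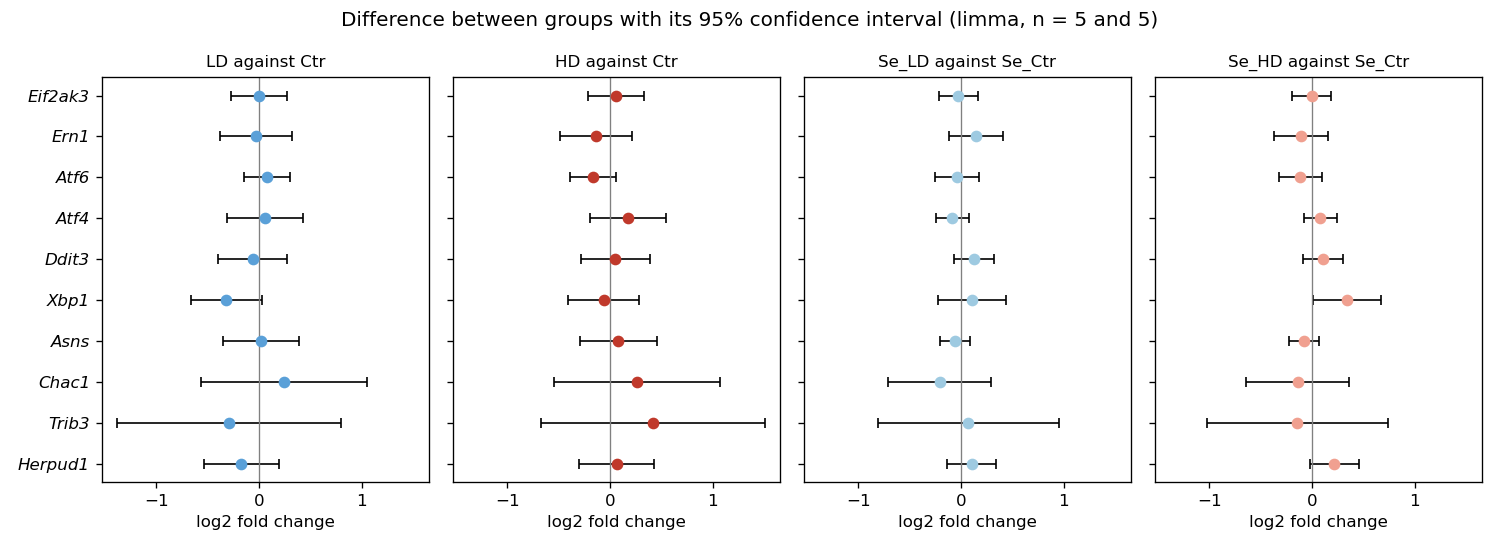
Log2 fold change (horizontal axis) of each of the 10 genes (vertical axis) in LD and HD against Ctr and in Se_LD and Se_HD against Se_Ctr, with 95% confidence intervals from limma, 5 mice per group. Every interval includes 0 except that of Xbp1 in Se_HD against Se_Ctr, which runs from 0.0090 to 0.68.

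HD replicate 2 was the highest mouse for most ATF4 targets and tRNA synthetases and for a smaller share of the chaperones. For each of 6 further pathway lists, genes whose mean count reached 10 were counted; the genes named in this and the following paragraph were, unless the naming rule gives them, picked after their values were seen. Of 18 ATF4 targets of amino acid supply, 15 were highest in this mouse, and of 12 aminoacyl-tRNA synthetases 11 were, all but Wars. Of 13 eIF2α kinases, phosphatase subunits and partner factors 7 were highest there, and of the 10 genes themselves 5 of the 9 with sufficient counts. By contrast, 3 of 21 chaperones and folding enzymes (14.3%), 3 of 20 genes of degradation and the translocon (15%) and 3 of 11 sensors and regulators (27.3%) were highest in it, beside 12.9% of all genes. These are descriptions of 1 library.

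Amino acid transporters were among the furthest: Slc7a3, a cationic amino acid transporter, measured 424 against 45.7 to 130.0 in the other 29 mice. Slc1a4, a carrier of serine and alanine, was at 1323 against 466 to 727, where the next value was also an HD mouse, replicate 5. The mitochondrial folate enzyme gene Mthfd2 stood at 142 against 24.2 to 57.5. Below the mean of 10, the stress hormone gene Fgf21 had 28 reads in this library and at most 1 in any other, whereas Gdf15, another stress hormone gene, had 0 reads in it and at most 3 elsewhere. Phgdh, of serine synthesis, was among the lowest in this mouse (138.7 against 98.3 to 229.7, rank 28). Of the transcription factors, Atf3, whose mean was also below 10, measured 42.4 against 1.17 to 17.5, Atf5 406 against 129 to 314 and the stress-induced cofactor Nupr1 125 against 2.69 to 47.2. Others of the same list were not high in it, with Ddit4 at rank 20 and the phosphatase subunit Ppp1r15a at rank 11. Among the tRNA synthetases, which attach amino acids to tRNA, Cars measured 577 against 206 to 297, Aars 1627 against 854 to 1137 and Nars 3029.6 against 1528 to 2167. Of the eIF2α kinases, Eif2ak2 (PKR, responsive to double-stranded RNA and interferon) was at 416 against 87.8 to 170.2, whereas Eif2ak1 (HRI) was the lowest of 30 (366 against 375 to 464) and Eif2ak4 (GCN2) had rank 14. The membrane-bound factors Creb3l1 and Creb3l2 were also highest in this mouse, at 2.8 and 1.9 times the median of the other 29, as were the chaperone and folding genes Dnajc3, P4hb and Ppib, at 1.5, 1.5 and 1.4 times.

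The median over each list of the log2 difference from a gene's own median over the 30 mice summarises this. For the ATF4 targets it was 0.87 in HD replicate 2 and from -0.13 to 0.18 in the other 29 mice. For the tRNA synthetases it was 0.64 in HD replicate 2 and from -0.14 to 0.095 in the other 29 mice. The chaperones and folding enzymes gave 0.18 in HD replicate 2 and from -0.16 to 0.32 in the other 29 mice, so that 5 mice were above it: HD replicates 1 and 3, Ctr replicate 4 and Se_HD replicates 4 and 5. HD replicate 1 was the highest of 30 for 6 of the 21 chaperone genes (28.6%, beside 8.79% of all genes), HD replicate 2 and Se_HD replicate 5 for 3 each (14.3%, beside 12.9% and 2.53%) and HD replicate 3 and Se_HD replicate 4 for 2 each (9.52%, beside 1.03% and 2.88%). The list median was thus highest in HD replicate 2 for the ATF4 targets and in HD replicate 1 (0.32) for the chaperones. HD replicate 2 also had the highest microglial and astrocyte marker sums (7843 and 88729.8). Its sums were the lowest for excitatory neuron, oligodendrocyte (27012) and thalamus and striatum markers (859), and none of these markers was at 0 in any library. Of the astrocyte markers, Gfap (32820) and Aqp4 (9364) were far above their HD medians (7281 and 2704), and Aldh1l1 and S100b were above theirs. Slc1a2, Slc1a3 and Gja1 were below their HD medians and above their Ctr medians. The part of these markers in the values of this mouse was not tested.

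**Figure D3:**
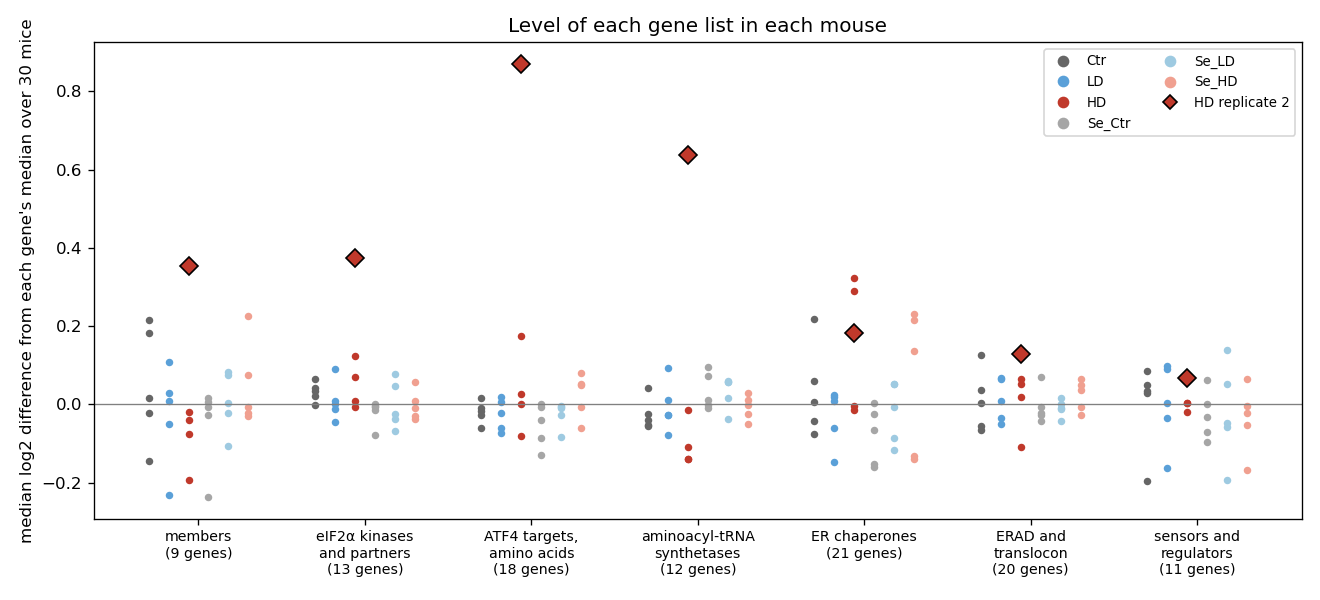
Vertical axis, median over the genes of a list of the log2 difference from each gene's median over 30 mice; horizontal axis, the 10 genes themselves (members, 9 whose mean count reached 10) and 6 further pathway lists. Each point is a mouse, coloured by group, and the diamond is HD replicate 2. The diamond lies at 0.87 for the ATF4 targets and 0.64 for the tRNA synthetases, apart from the other 29 mice. It is also above all of them for the members (0.35, others up to 0.23) and the eIF2α kinases and partners (0.37, others up to 0.12). For the last 3 lists it is within or near their range.

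Over whole groups, the 6 further lists held 100 genes. In HD against Ctr, 2 of 99 tested rose (2.02%, beside 3.36% of all genes called higher), none fell, and 73 of 99 had a log2 fold change above 0 (73.7%, median 0.10), beside 51.2% of all genes (median 0.0067). Without HD replicate 2 it was 60 of 98 (61.2%, median 0.045), beside 51.1% of all genes. By list, the tRNA synthetases went from 9 to 3 of 12, the ATF4 targets from 19 of 20 to 15 of 19, the chaperones from 17 to 16 of 21, the kinases and partner factors from 8 to 7 of 14 and the sensors and regulators from 7 to 6 of 11, and 13 of 21 degradation and translocon genes were above 0 both times. Slc1a4 rose by 0.46 ± 0.18 (SE, unadjusted p = 0.0177, adjusted p = 0.451). Leaving out HD replicate 2 took its log2 fold change to 0.22 and ended the call, which was also lost, at 0.44 to 0.48, without any of Ctr replicates 2 to 5, LD replicates 1 and 3 or HD replicate 5. Pdia4, a protein disulfide isomerase of the folding machinery, rose by 0.38 ± 0.17 (SE, unadjusted p = 0.0315, adjusted p = 0.529), a call lost without any of Ctr replicates 3 and 5 or HD replicates 1, 2 and 3 (0.27 to 0.35). By list, 1 of 20 ATF4 targets, 1 of 21 chaperones and none of the 14 kinases and partners, 12 tRNA synthetases, 21 degradation and translocon genes and 11 sensors and regulators were called, and no adjusted p was below 0.05.

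Pdia4 was the gene of these lists with the lowest p for the high dose over both diets. It measured 353, 354, 317, 471 and 254 in Ctr and 511, 525, 531, 357 and 351 in HD, and 326, 297, 251, 250.0 and 257 in Se_Ctr and 287, 343, 409, 542 and 497 in Se_HD. Here 3 of the 5 HD mice lay above every Ctr mouse and 4 of the 5 Se_HD mice above every Se_Ctr mouse, and the groups overlapped. Pooled over diets the log2 fold change was 0.47 ± 0.12 (SE, unadjusted p = 0.000392, adjusted p = 0.0881), and it stayed between 0.42 and 0.53 with any mouse left out. Slc7a11, the cystine carrier that feeds glutathione synthesis, rose by 0.37 ± 0.13 (SE, unadjusted p = 0.009, adjusted p = 0.315). Its values were 413, 647, 476, 523 and 335 in Ctr and 492, 641, 471, 838 and 559.9 in HD, again with overlap. Slc1a4, Slc38a2 and Dnajc3, the last named after its values were seen, completed the 5 of 100 genes that rose with the high dose over both diets (5%, beside 2.77% of all genes). The calls of Pdia4 and Slc7a11 held with any 1 of the 30 mice left out, whereas those of Slc1a4, Dnajc3 and Slc38a2 were lost in 24, 20 and 18 of the 30 omissions. A covariate for sets of 6 consecutive library numbers also ended the calls of Slc1a4 and Dnajc3. Without HD replicate 2 the value of Slc1a4 was 0.11, from 0.23, and that of Slc38a2 0.12, from 0.18.

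In Se_HD against Se_Ctr, 5 of 97 genes tested rose (5.15%, beside 1.28% of all genes): Pdia4 by 0.56 ± 0.15 (SE, unadjusted p = 0.00132, adjusted p = 1), Slc38a2 by 0.28, Slc7a11 by 0.42 and, named after their values were seen, Dnajc3 by 0.27 and Ppp1r15b by 0.23. Of these calls, that of Slc7a11 was lost in 6 of 15 omissions of a mouse (Se_Ctr replicates 2, 3 and 5 and Se_HD replicates 1, 4 and 5, at 0.29 to 0.42) and that of Ppp1r15b without Se_HD replicate 5 (0.17). With selenium pooled over doses 3 of 100 fell (1.63% of all genes), namely Atf5 (log2 fold change -0.30) and, likewise picked from the calls, Atf3 (-0.53) and the disulfide isomerase gene Pdia3 (-0.25). Adjusted p-values were 0.651 to 0.752 for these 3, and the calls of Atf3 and Atf5 were lost in 12 and 5 of 30 omissions, that of Pdia3 in none. Genes that rose or fell here are thus called by the unadjusted rule alone.

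Over the 30 mice the 10 genes did not vary as a single set. Of 45 pairs, 7 had a Pearson permutation p below 0.05 after adjustment over the pairs. Of these, Atf4 with Ddit3 (r = 0.52) came to 0.24 and Atf4 with Chac1 (0.57) to 0.34 without HD replicate 2. By rank over the 30 mice, Atf4 with Ddit3 gave rho = 0.24 (permutation p = 0.196). Atf4 with Chac1 gave rho = 0.48 (permutation p = 0.00813, adjusted 0.0722). The relation of Atf4 with Ddit3 thus rests largely on HD replicate 2, and that of Atf4 with Chac1 in part. Xbp1 and Herpud1 were closest, with r = 0.70 (permutation p = 3e-05, adjusted 0.00135) and rho = 0.66 (p = 0.00013, adjusted 0.00585). The relation was r = 0.60 without the 2 mice farthest from the median of Xbp1, 0.69 without HD replicate 2 and 0.66 for deviations from the group means. Ddit3 and Xbp1 gave r = 0.55 (permutation p = 0.00198, adjusted 0.0178) and rho = 0.62 (p = 0.00043, adjusted 0.00968), and 0.60 without the 2 farthest mice. Atf4 and Herpud1 gave r = 0.60 (permutation p = 0.00054, adjusted 0.0081) and rho = 0.57 (p = 0.00141, adjusted 0.0212), and 0.55 without them. The remaining pairs were Ddit3 with Eif2ak3 (r = 0.61, permutation p = 0.0005, adjusted 0.0081) and Ddit3 with Herpud1 (r = 0.50, permutation p = 0.00519, adjusted 0.0341). Without HD replicate 2 these came to 0.55 and 0.44. Atf4 and Asns, factor and target, gave r = 0.54 (permutation p = 0.0112, adjusted 0.063) and rho = 0.22 (p = 0.252, adjusted 0.574), but r = 0.076 without the 2 farthest mice and 0.095 without HD replicate 2, so that this relation rests on that mouse.

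For each of the 10 genes, the gene of the 6 lists or of the 10 themselves with the most similar pattern was sought by Pearson r over the 30 mice, given as a description. For Xbp1 it was Hspa5, the main chaperone of the endoplasmic reticulum (r = 0.82, and 0.81 without HD replicate 2). Hspa5 was highest in HD replicate 3 (3714), Se_HD replicates 5 and 4 (3544 and 3413) and Ctr replicate 4 (3331), and Xbp1 was at 419.6, 497, 430.2 and 525 in these mice, its 4 highest values. A high level of this pair was thus seen in single mice with and without MeHg. For Asns the closest was Aars, alanyl-tRNA synthetase (r = 0.90, and 0.71 without HD replicate 2), and for Atf4 it was Cars (0.77 and 0.62). Atf6 was closest to Sel1l, a scaffold of the degradation machinery (0.77 both with and without that mouse), and Herpud1 to Xbp1. Ddit3 was closest to Eif2ak2 (0.63, but 0.26 without HD replicate 2) and Chac1 to Slc1a4 (0.66 and 0.41). Without HD replicate 2 the closest gene was another one for Atf4 (Ddit4, 0.72), Ddit3 (Xbp1, 0.58), Chac1 (Herpud2, 0.50) and Asns (Gars, 0.71). Eif2ak3 was closest to Ddit3 (0.61 and 0.55). The leads of Ern1 (Eif2ak4, 0.43) and Trib3 (Slc1a5, 0.44) were weak and say little, and Trib3 is further limited by its low counts.

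**Figure D4:**
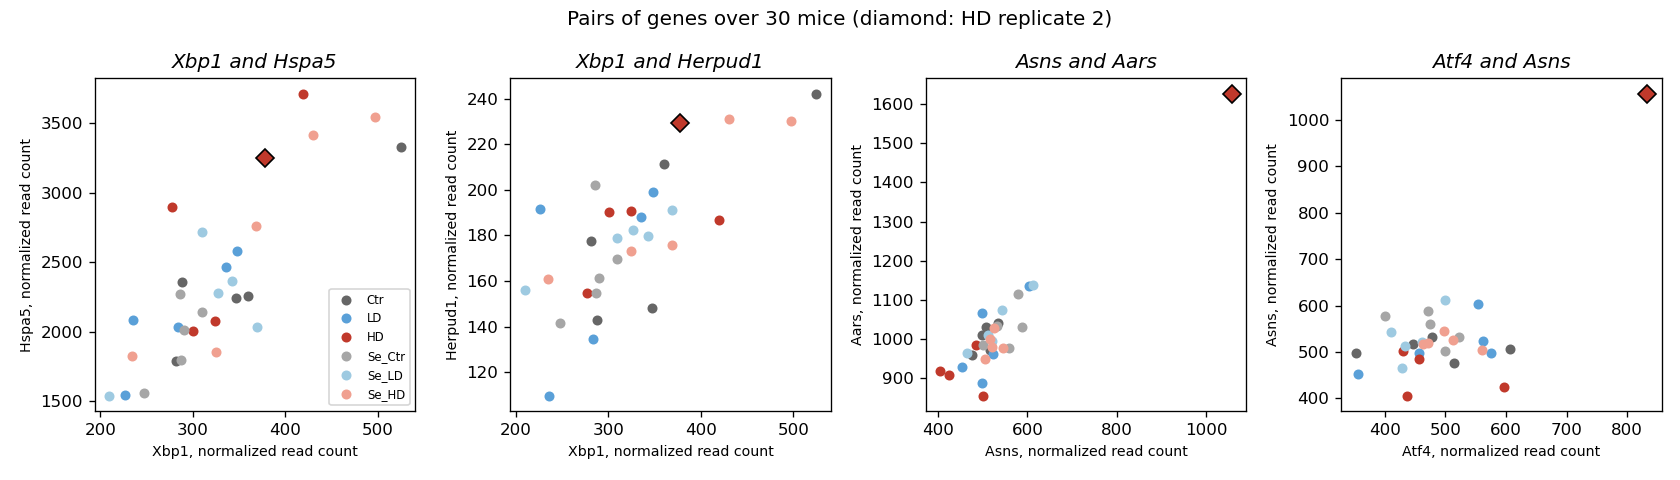
Normalized read counts of Xbp1 against Hspa5 and Herpud1, of Asns against Aars and of Atf4 against Asns (each axis 1 gene, linear scale) in the 30 mice, coloured by group. The diamond is HD replicate 2. It lies along the cloud of the other mice for both pairs with Xbp1 (r = 0.82 and 0.70), and far outside it for Atf4 and Asns, where r is 0.54 with it and 0.095 without.

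Markers of other cells moved with the high dose. All 10 microglial markers rose in HD against Ctr, 4 of them with an adjusted p below 0.05, and their sum was 3388 to 7843 in HD and 2654 to 2924 in Ctr. Of 7 astrocyte markers 4 rose, beside 3.36% of all genes, and of 5 inhibitory neuron markers 2 fell, beside 1.73% of all genes. In Se_HD against Se_Ctr none of the 10 microglial and 1 of the 7 astrocyte markers rose, beside 1.28% of all genes. Choroid plexus markers varied widely within all groups (sums of 314 to 38474 over the 30 mice). Their median sum was 11187 in Ctr and 27940.5 in HD, 14478 in Se_Ctr and 29261 in Se_HD, with overlap of the groups. Their median log2 fold change was 1.45 in HD against Ctr, 0.75 in Se_HD against Se_Ctr and 1.13 for the high dose over both diets, where Pdia4 also rose, and none of the 10 choroid plexus markers was called in any of the 3. Summed immediate early genes were 1342 to 9270 in Ctr and 1796 to 4443 in HD, with none of the 10 called. The part of these differences in the values of the stress genes was not tested.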

How the data were processed

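RNA of 30 hippocampi was sequenced with a stranded, poly(A)-selecting kit (single-end reads). Per the submitters' processing notes and the methods of the study, the authors trimmed reads with Trim Galore (0.4.2), aligned them with HISAT2 to build NCBIM37, counted them per gene with featureCounts (strand setting not given in the sources used here), removed genes with fewer than 10 reads in all, and normalized with DESeq2.

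The deposited values are a normalized read signal: counts divided by size factors. Every value came out as a whole read (100% within 0.001 read), and the reads were recovered. Identifiers were matched to the annotation of build NCBIM37 (21326 of 21412; 86 had no entry). The lowest sum of reads over the libraries was 11.

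Log2(normalized count + 1) entered linear models with a mean-variance trend (limma 3.58.1, R 4.3.3), keeping genes with a sum of at least 10 in the libraries of the fit. Ctr, LD and HD formed one fit, the selenium groups another, and all 30 libraries the pooled and interaction contrasts. A fold change on this scale understates that of low genes. A gene was called when p was below 0.05 over the groups of the fit and in the contrast, which is the order the study used; Benjamini-Hochberg adjusted values are over all genes of the fit. Exact two-sided permutation tests compared group means of log2 values, and correlations used 100000 permutations. Fits were tested on simulated data. edgeR 4.0.16 (quasi-likelihood) and DESeq2 1.42.0 on the recovered reads, other pseudocounts and filters, and leaving out each mouse were alternatives. The limma p-values set a difference of group means against the spread between mice within groups. That spread was pooled over the groups of the fit and drawn towards the trend over all genes. Counting without molecular identifiers means that read numbers give counting error only.

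Genes were named by rule: the 10 genes; per pathway list the gene with the lowest p in HD against Ctr and in the pooled high dose, any with an adjusted p below 0.05 and the one with the highest level per kb; and the gene most alike to each of the 10. The 10 genes and all lists were chosen with earlier results of these data known. Crebrf was not found by its symbol. Promoter sequences are from RefSeq, build GRCm38.p6, a different build from that of the gene coordinates.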

Additional observations from a re-analysis of the deposited data

Results flagged for a closer look

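Within each group of 5 mice, the highest or lowest value was set against the others by Dixon's ratio of the gap to the range, with a limit of 0.71. Of the 60 groups of the 10 stress genes 6 exceeded it, where chance gives about 3, since it marks about 1 in 20. Over all 258 groups of values examined, which add the further named genes, marker sums and reads on genes, 21 did, 9 of them in HD replicate 2. The further genes were named for a low p or for a pattern like that of a stress gene, in part through this mouse (Aars, Cars, Eif2ak2 and Slc1a4), so that neither the 1 in 20 nor its share of the 21 can be read for them.

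In HD replicate 2 the ratios were 0.852 for Asns, 0.763 for Ddit3 and 0.728 for Chac1, all on the high side. The same mouse gave 0.831 for Aars, 0.826 for Eif2ak2, 0.802 for Cars, 0.737 for Creb3l1 and 0.726 for Slc1a4, also high, and 0.763 for its low sum of excitatory neuron markers.

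Se_Ctr replicate 4 gave 0.928 for its high Atf6 (1049), 0.785 for Sel1l, whose pattern was closest to that of Atf6, and 0.805 for its low Ddit3 (127). Ern1 was low in Se_Ctr replicate 1 (ratio 0.771). Other single values were Ddit4 in Se_HD replicate 4 (0.773), Nars in Se_LD replicate 5 (0.768), Ppib in Ctr replicate 3 (0.723) and Creb3l1 in Se_Ctr replicate 2 (0.711). Library measures were the reads on genes of HD replicate 1 (0.821), the summed inhibitory neuron markers of Se_HD replicate 2 (0.763), and the summed thalamus and striatum markers of LD replicate 5 (0.781) and Se_HD replicate 2 (0.911).

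The effect of the dose differed between diets, by the limma interaction term before adjustment, for 3 of the pathway genes: 2 of 100 for the high dose (2%, beside 2.38% of all genes) and 1 of 100 for the low dose (1%, beside 1.09%), shares near the background. The high-dose effect was smaller with selenium by -0.46 for Slc1a4 and by -0.57 for Atf5. The low-dose effect was larger with selenium by 0.49 for Pdia4. None had an adjusted p below 0.05 (all at least 0.997). Without HD replicate 2 the Slc1a4 value was -0.22 and the Atf5 value -0.45, and neither was called; without Ctr replicate 4 that of Pdia4 was 0.38 and was not called. With each of the 30 mice left out in turn the values ranged over -0.57 to -0.22 for Slc1a4, -0.73 to -0.43 for Atf5 and 0.38 to 0.60 for Pdia4, and the calls were lost in 24, 20 and 11 of these omissions, respectively.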

How the results depend on the processing

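The count of 0 of the 10 stress genes called held in all 12 contrasts under other pseudocounts (0.1 and 10), filters, TMM factors, edgeR, DESeq2, no trend, a single fit of 30 libraries and a covariate for sets of 6 consecutive library numbers. Using the contrast p alone gave 1 in HD against LD (Atf6), 1 in Se_HD against Se_Ctr (Xbp1) and 1 in Se_HD against Se_LD (Atf4). With each mouse left out in turn the count ranged from 0 to 1 in Se_HD against Se_Ctr, Se_HD against Se_LD and the high-dose interaction (Xbp1, without Se_HD replicate 2), and from 0 to 1 for the high dose and selenium pooled (Asns, without HD replicate 2).

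Signs of the differences in HD against Ctr depended on single mice. With each left out, the log2 fold change ranged over -0.097 to 0.13 for Ddit3, -0.037 to 0.13 for Eif2ak3, -0.10 to 0.43 for Chac1, -0.16 to 0.18 for Asns and -0.020 to 0.17 for Herpud1, in each case turning negative without HD replicate 2. It ranged over -0.14 to 0.083 for Xbp1, -0.21 to 0.0086 for Ern1 and -0.023 to 0.63 for Trib3, turning sign without Ctr replicate 4 or HD replicate 1, Ctr replicate 2 and Ctr replicate 5, respectively. Ddit3 and Eif2ak3 also turned without Ctr replicate 5, and Herpud1 without Ctr replicate 2 or 3. Atf4 (0.011 to 0.26) and Atf6 (-0.23 to -0.085) kept their sign. Asns over both diets ranged over -0.12 to 0.054.

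Of the further pathway genes, 2 of 99 were called in HD against Ctr (beside 5.09% of all genes), but 5 with edgeR (5.85%), 6 with DESeq2 (5.45%), 4 in the fit of 30 libraries (4.7%), 4 by the contrast alone (8.34%), 0 without the trend (4.99%), and 0 to 4 with a mouse left out, 0 without HD replicate 2, Ctr replicate 3 or Ctr replicate 5. The 5 of 100 called for the high dose over both diets (4.21%) became 3 with a pseudocount of 10 (4.36%), 3 of 95 with a mean filter of 10 (4.92%), 3 with the covariate (4.12%), 8 with DESeq2 (4.75%), 2 without the trend (3.98%), 10 by the contrast alone (9.09%), and 2 to 7 with a mouse left out. The cause was not tested. The labels give no replicate numbers that groups share, and the sets of 6 consecutive library numbers, each with 1 library of every group, entered only as the covariate named above, which also ended the calls of Dnajc3 and Slc1a4 for the high dose over both diets and of the Slc1a4 interaction. Trib3 (0 to 7 reads a library) is limited by depth.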
